A study of Homo sapiens with 6 samples.

Results

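Polylactosamine N-acetylglucosaminyltransferases are Golgi enzymes that lengthen or branch chains of repeated galactose and N-acetylglucosamine (GlcNAc), and 6 genes of this kind were followed here in HCT-15 cells with and without 5-aza-2'-deoxycytidine. They are B3GNT2, B3GNT4, B3GNT7, B3GNT8, GCNT2 and B4GAT1, the last of which was formerly named B3GNT1. They were chosen by name, and every probe set whose RefSeq transcript belongs to one of them was taken. This gave 6 probe sets, 1 for each gene, of 1259 on the array. Altogether 927 genes had a named probe set. HCT-15 is an established human colon cancer cell line. The drug, an analogue of deoxycytidine, enters DNA during replication and traps the methyltransferases that keep up DNA methylation. Total RNA was measured on 6 arrays, 3 of cells labelled Untreated and 3 of cells labelled Treated, and all 6 are of the same cell line. Dose, duration and vehicle are not given in the labels, nor is it said whether the replicates were separate cultures, so the p-values rest on a spread between arrays that may be technical.

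Polylactosamine grows by turns: a β1,3-N-acetylglucosaminyltransferase adds GlcNAc to galactose, and a β1,4-galactosyltransferase adds the next galactose. The finished chain carries blood group i and, once branched by GCNT2, blood group I. Its ends can be sialylated and fucosylated to sialyl Lewis x, the selectin ligand the submitters measured on these cells. B3GNT2 is regarded as the main chain-extending enzyme, and B3GNT8 forms a complex with it. B3GNT7 acts in keratan sulfate, a sulfated form of the same chain. B4GAT1 was first described as an i-extension enzyme and is now known as a glucuronyltransferase of the O-mannose glycan of dystroglycan.

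Of the 6 genes, 3 rose with treatment (B3GNT2, B3GNT8 and GCNT2), 1 fell (B3GNT4), and B3GNT7 and B4GAT1 were not called. B3GNT2 moved the most, by 1.87-fold, while the other changes that passed the test were between 1.19-fold and 1.27-fold. A call means a limma adjusted p under 0.05, by the Benjamini-Hochberg method over all 1259 probe sets. By that rule 34.8% of all probe sets were called, 18.0% higher and 16.8% lower, so calls in both directions were common on this array. With median-centred arrays the split over all probe sets was 197 higher and 311 lower, in place of 227 and 211, and that over the 6 genes was 2 and 2. The median log2 change was 0.16 over the 6 genes and -0.01 over all probe sets.

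Array medians lay between 5.81 and 5.92 on the log2 scale, and at most 5 values were identical between any pair of arrays. The titles of all 6 arrays contain the word control, those of the treated arrays included. Untreated replicate 3 has a title that names it as treated, against its source name and treatment entry, and it was grouped by the last. Without it the 6 genes again gave 3 rises and 1 fall. Of 14 listed markers of colon epithelium 3 have a named probe set: MUC13 (7.97 in untreated and 8.93 in treated cells), LGALS4 (9.54 and 9.03) and MUC2 (5.57 and 5.67), the last below the median of every array, so the label was checked on few genes and not all of them were bright. Of the listed leukocyte markers 5 of 10 were measured, with 1 rise and 1 fall, and of the stromal and endothelial markers 5 of 10, with 2 rises. Those 2 rises became 1 after median centring and 0 with unmoderated variances. Of these leukocyte, stromal and endothelial markers, BGN (7.12 in untreated and 7.45 in treated cells) and CD33 (5.58 and 6.15) were brighter than MUC2. The others measured were dimmer than MUC2 in both groups. Over all probe sets 18.0% were called higher and 16.8% lower. The part of other cell types in the results below was not tested.

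**Figure D1:**
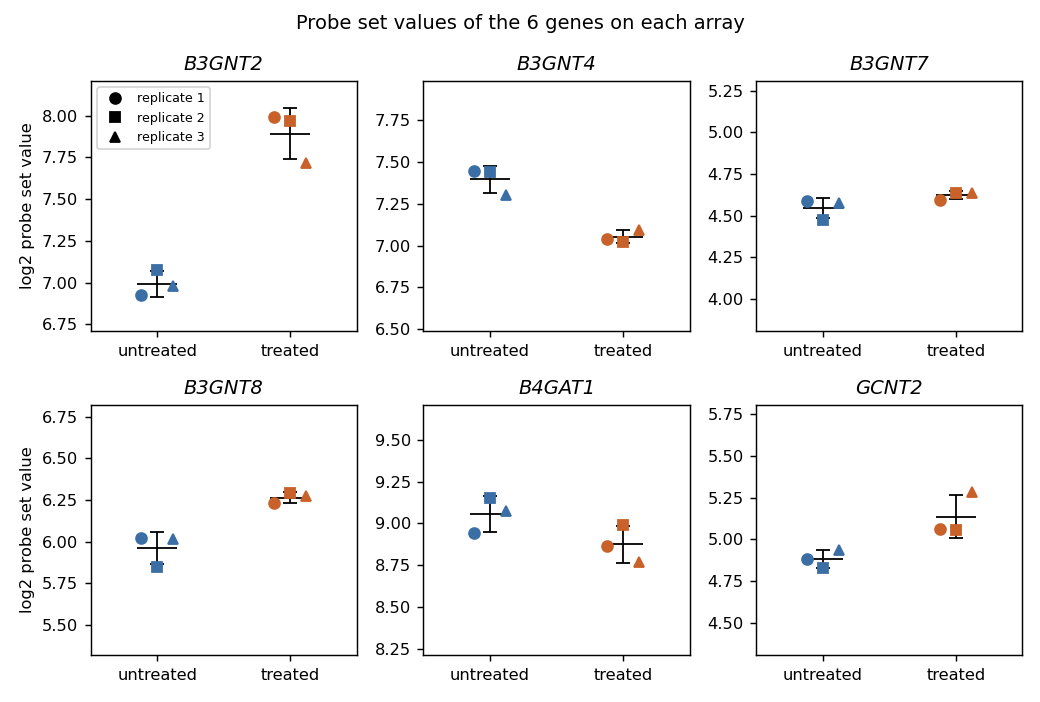
Log2 probe set value (vertical axis, each panel spanning the same range) of the 6 genes on the 3 untreated and 3 treated arrays. Points are arrays with a symbol for each replicate number, the short line is the group mean and the bars are the SD. The groups are far apart for B3GNT2, apart for B3GNT4, B3GNT8 and GCNT2, almost touching for B3GNT7, and they overlap for B4GAT1.

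B3GNT2, the main extension enzyme, was at 6.92, 7.08 and 6.98 on the untreated arrays and at 7.99, 7.97 and 7.72 on the treated arrays, in log2 units. The groups did not overlap, and the lowest treated array, replicate 3, was 0.64 above the highest untreated one. The mean went from 6.99 ± 0.08 to 7.89 ± 0.15 (SD, n = 3), a log2 change of 0.90 ± 0.09 (SE of the fit, 95% interval 0.70 to 1.10). The adjusted p in limma's test was 1.96e-05. Of all 1259 probe sets 57 had a larger rise, and 93.5% had a smaller change in either direction. The rise passed the threshold in all 13 alternatives run, with changes between 0.83 and 0.99.

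The drug traps the enzymes that keep up DNA methylation, which in human DNA lies mostly on the cytosines of CG dinucleotides. The 250 bases before each annotated start are therefore shown for B3GNT2, B3GNT7 and B3GNT8. The sequences are RefSeq's (GRCh38.p14), 5′ to 3′ on the gene's own strand, with every CG in capitals. B3GNT2 has starts with windows at chr2:62195865-62196114 and chr2:62215268-62215517 (both plus strand), B3GNT7 has one at chr2:231395460-231395709 (plus strand), and B3GNT8 has windows at chr19:41428731-41428980 and chr19:41427375-41427624 (both minus strand).
B3GNT2 start 1: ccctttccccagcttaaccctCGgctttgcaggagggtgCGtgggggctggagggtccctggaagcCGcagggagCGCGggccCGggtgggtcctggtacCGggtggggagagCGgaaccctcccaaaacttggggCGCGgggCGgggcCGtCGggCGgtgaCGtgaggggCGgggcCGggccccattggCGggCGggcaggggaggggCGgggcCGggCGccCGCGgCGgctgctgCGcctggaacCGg
B3GNT2 start 2: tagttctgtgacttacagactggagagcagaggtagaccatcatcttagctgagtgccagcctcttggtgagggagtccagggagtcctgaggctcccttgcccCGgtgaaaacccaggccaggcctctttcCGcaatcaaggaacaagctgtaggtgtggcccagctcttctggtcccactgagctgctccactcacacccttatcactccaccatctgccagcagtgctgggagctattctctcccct
B3GNT7 start 1: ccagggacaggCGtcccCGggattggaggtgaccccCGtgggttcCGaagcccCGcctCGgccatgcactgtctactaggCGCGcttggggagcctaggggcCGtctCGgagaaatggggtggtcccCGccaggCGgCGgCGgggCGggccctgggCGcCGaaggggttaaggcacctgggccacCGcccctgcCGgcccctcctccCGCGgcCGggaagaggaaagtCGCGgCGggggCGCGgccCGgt
B3GNT8 start 1: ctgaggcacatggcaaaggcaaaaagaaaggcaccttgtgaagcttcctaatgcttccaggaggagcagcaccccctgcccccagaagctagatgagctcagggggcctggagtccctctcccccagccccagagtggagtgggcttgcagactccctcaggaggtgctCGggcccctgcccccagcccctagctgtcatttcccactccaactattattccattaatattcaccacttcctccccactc
B3GNT8 start 2: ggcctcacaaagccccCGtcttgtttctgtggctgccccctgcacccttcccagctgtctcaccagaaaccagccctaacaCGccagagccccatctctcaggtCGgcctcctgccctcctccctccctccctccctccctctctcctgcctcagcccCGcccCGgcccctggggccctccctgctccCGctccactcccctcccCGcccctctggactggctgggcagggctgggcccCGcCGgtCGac

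The windows of B3GNT2 differ widely in CG, while those of GCNT2 do not. The first start of B3GNT2 has 27 CG dinucleotides, a number reached by 17.7% of all 35116 RefSeq windows of 250 bases, and its second start has 2. B3GNT7, which was not called, has 28 before its start, and 15.9% of windows have as many or more. B3GNT8 has 1 and 10, and the 4 windows of GCNT2 (chromosome 6, plus strand) have 3, 2, 4 and 4. Over all windows the median is 11, with quartiles at 3 and 23. The windows of the genes called higher hold from 1 to 27 CG, and no window was available for B3GNT4 and B4GAT1. Any link between CG number and the changes was not tested. The motif CG reads the same on both strands, its number is a description of the sequence, and neither methylation nor the start in use was measured on these arrays.

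**Figure D2:**
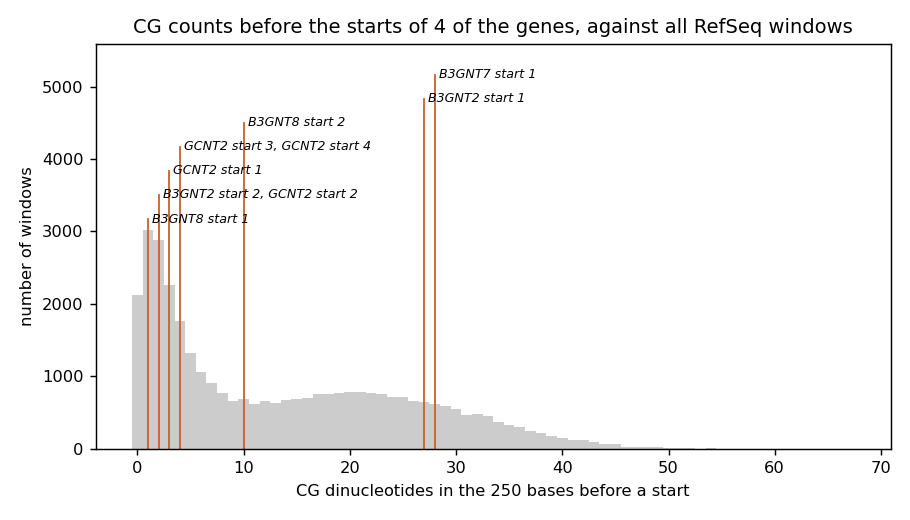
Number of CG dinucleotides in the 250 bases before a start (horizontal axis) over all 35116 RefSeq windows (grey bars, number of windows), with the 9 windows of B3GNT2, B3GNT7, B3GNT8 and GCNT2 as labelled lines whose heights carry no value. The first start of B3GNT2 and the start of B3GNT7 stand on the right at 27 and 28, and the other 7 windows have 10 or fewer.

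B3GNT8, the partner of B3GNT2, was at 6.02, 5.85 and 6.02 on the untreated arrays and at 6.23, 6.29 and 6.27 on the treated ones. All treated values were above all untreated values, by at least 0.21. The mean went from 5.96 ± 0.10 to 6.26 ± 0.03 (SD, n = 3), a log2 change of 0.30 ± 0.07 SE or 1.23-fold (95% interval 0.14 to 0.47, limma adjusted p = 0.00843). It passed the threshold in all 13 alternatives, with a highest adjusted p of 0.0371. The interval of B3GNT8 lies wholly below that of B3GNT2, although the difference between the 2 changes was not itself tested.

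GCNT2, the β1,6-branching enzyme that turns i into I, was at 4.88, 4.83 and 4.94 on the untreated arrays and at 5.07, 5.06 and 5.28 on the treated ones. The groups did not overlap, and treated replicate 3, the lowest treated array for B3GNT2, was the highest for GCNT2. The mean went from 4.88 ± 0.05 to 5.14 ± 0.13 (SD, n = 3), a log2 change of 0.25 ± 0.08 SE or 1.19-fold (limma adjusted p = 0.0332). This call was kept in 7 of 13 alternatives, and the adjusted p reached 0.0918 without treated replicate 3, 0.073 without untreated replicate 1 and 0.108 without untreated replicate 2. The change stayed above 0 in all 13, at 0.18 to 0.29. GCNT2 was dim, with 35.1% of probe sets at a lower mean, and of the 6 genes only B3GNT7 was dimmer. The probe set is named for 1 transcript of GCNT2 and its name ends in s_at, which marks probes able to bind several transcripts, so isoforms of the gene cannot be told apart here.

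B3GNT4, a β1,3-N-acetylglucosaminyltransferase of the same family, was the only one of the 6 genes called lower in this fit. It was at 7.45, 7.44 and 7.31 on the untreated arrays and at 7.04, 7.02 and 7.10 on the treated ones, so all treated arrays were lower, by at least 0.21. The mean went from 7.40 ± 0.08 to 7.05 ± 0.04 (SD, n = 3), and B3GNT4 fell by 0.35 ± 0.07 SE on the log2 scale (1.27-fold lower, 95% interval -0.50 to -0.19, limma adjusted p = 0.00323). The fall passed the threshold in all 13 alternatives, with changes between -0.41 and -0.32.

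B3GNT7, the keratan sulfate enzyme, was at 4.59, 4.48 and 4.58 on the untreated arrays and at 4.60, 4.64 and 4.63 on the treated ones. The treated values were all higher, but by a gap of only 0.0079. The log2 change was 0.08 ± 0.07 SE, with an interval from -0.08 to 0.23 that includes 0 (limma adjusted p = 0.466), and after quantile normalization it was -0.011. With 28.3% of probe sets at a lower mean, this is the dimmest of the 6, and no detection call was used that could set it against background. The interval leaves out a rise as large as that of B3GNT2, within what these arrays measure of a dim probe set.

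B4GAT1, the dystroglycan glucuronyltransferase, was at 8.94, 9.15 and 9.07 on the untreated arrays and at 8.86, 8.99 and 8.77 on the treated ones. The groups overlapped, since treated replicate 2 lay above untreated replicate 1. The log2 change was -0.18 ± 0.09 SE (95% interval -0.37 to 0.01, limma adjusted p = 0.133). It passed the threshold only in 1 of the 13 alternatives, median centring (-0.25, adjusted p = 0.0458).

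In 5 of the 6 genes the treated and untreated arrays did not overlap, 4 with treated higher and 1 with treated lower. Over all probe sets 46.1% did not overlap, 22.7% with treated higher and 23.4% with treated lower. No array was the highest or lowest of its group throughout: treated replicate 3 was lowest for B3GNT2 and B4GAT1 and highest for GCNT2 and B3GNT4, and untreated replicate 2 was lowest for B3GNT7, B3GNT8 and GCNT2 and highest for B3GNT2 and B4GAT1.

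**Figure D3:**
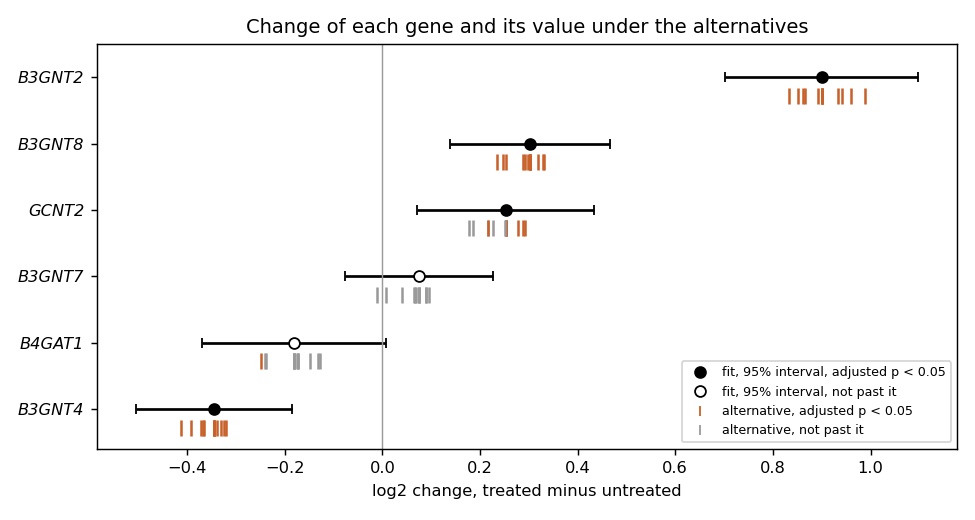
Log2 change of each gene, treated minus untreated (horizontal axis), with its 95% interval (filled circles passed an adjusted p under 0.05) and, below it, its value under each alternative. B3GNT2 stands apart at 0.90, all alternatives of B3GNT2, B3GNT8 and B3GNT4 are past the threshold, and GCNT2 has 7 past it and 6 not.

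**Figure D4:**
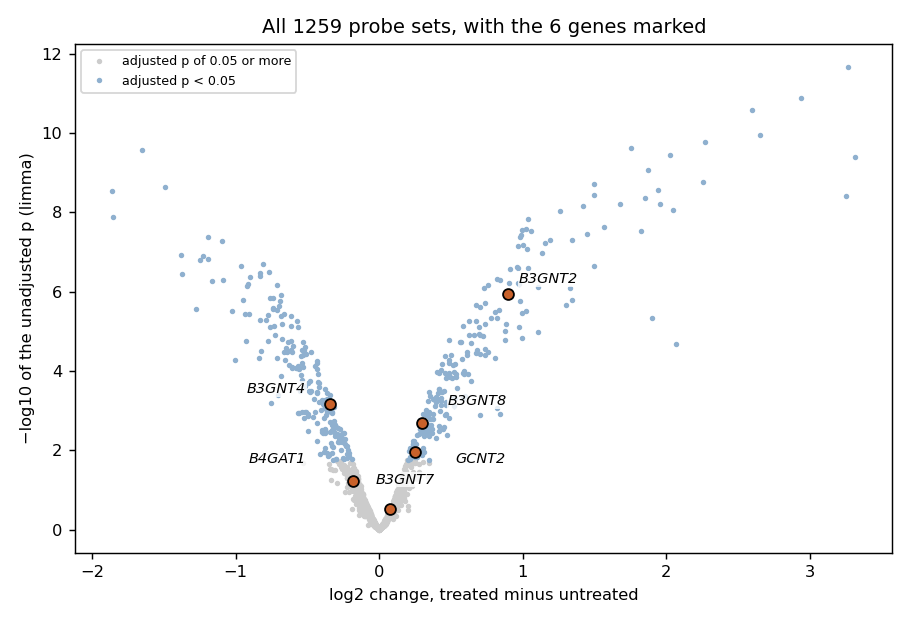
Log2 change (horizontal axis) and −log10 of the unadjusted p of limma's test (vertical axis) of all 1259 probe sets, blue where called, with the 6 genes as large points. B3GNT2 lies in the upper right arm, where 57 probe sets rose more, and the other 5 lie near the base of the cloud.

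The profiles most like those of the 4 called genes were sought among 921 other genes, by the root mean square (RMS) difference of log2 values centred on each gene's own mean, over the 6 arrays. Nearest to B3GNT2 was OLR1, a scavenger receptor with a log2 change of 0.85 (RMS difference 0.062), followed by SLC17A5, the lysosomal sialic acid transporter, and the chemokine CXCL8, both with a change of 0.81. Nearest to B3GNT4 were the ribosomal protein gene RPL3 (RMS difference 0.043, log2 change -0.34), the core fucosyltransferase FUT8 and ALG8, a glucosyltransferase of N-glycan precursors. B3GNT8 was most like ST8SIA1, the sialyltransferase that makes ganglioside GD3 (0.047, log2 change 0.33), BGN and CLEC4C. GCNT2 was most like WNT1 (0.043, log2 change 0.31), the ceramidase ACER2 and PKD1L2. CLEC4C and PKD1L2 were themselves not called (limma adjusted p = 0.0588 and 0.132). CXCL8, ST8SIA1, CLEC4C and ACER2 were dim, with means under 4.90 in both groups. The 6 arrays form 2 groups, so the size of the treatment difference enters this measure.

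The other genes of the pathway were counted in lists, to be read against the 18.0% of all probe sets called higher and the 16.8% called lower. Among 7 other genes of the β1,3-N-acetylglucosaminyltransferase activity 2 rose and 3 fell. MFNG and RFNG, which extend O-fucose on Notch, rose by 1.04 ± 0.09 SE and 0.43 ± 0.09 on the log2 scale, while their relative LFNG (-0.38 ± 0.08), B3GNT9 (-0.68 ± 0.07) and the core 1 extension enzyme B3GNT3 (-0.37 ± 0.10) fell. A further probe set of LFNG, at -0.23, was not called. With unmoderated variances 1 rise and 2 falls were left, and after quantile normalization or median centring there were 2 rises and 4 falls. B3GNT5, which starts lacto-series glycolipids, was at 8.20 and 8.30 and was not called (limma adjusted p = 0.421). In median log2 change these 7 were at -0.14, against 0.16 for the 6 genes and -0.0036 for all 927 named genes.

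Of 6 measured β1,4-galactosyltransferases, a family with members that alternate with B3GNT2, 2 were called, a share near the 34.8% of all probe sets. B4GALT1 rose (0.37 ± 0.10 SE) and B4GALT2 fell (-0.32 ± 0.08), and neither was called after quantile normalization. The rise of B4GALT1 was lost without untreated replicate 2, and the median log2 change of the list was 0.02. The donor of both β1,3 and β1,6 steps is UDP-GlcNAc, and of 7 measured genes for its supply and transport 4 rose and 2 fell (median 0.23), beside 18.0% and 16.8% of all probe sets. GFPT2, an isoform of the first hexosamine enzyme, rose by 2.26 ± 0.12, the pyrophosphorylase UAP1 by 0.47 ± 0.08 and GFPT1 by 0.40 ± 0.11. GNPNAT1, an acetyltransferase between GFPT1 and UAP1, fell by 0.43 ± 0.08 and the transporter SLC35B4 by 0.35 ± 0.12. Of the other measured transporters, SLC35D2 rose by 0.23 ± 0.08 and SLC35A3 was not called (0.02 ± 0.12). The groups overlapped for SLC35B4, whose call was kept in 6 of 13 alternatives, and that of SLC35D2 was kept in 5 of 13. The rises numbered 2 without untreated replicate 3, without treated replicate 1, after median centring and with unmoderated variances. The falls numbered 1 when replicate 1 or 2 of either group was left out. They also numbered 1 after quantile normalization, with unmoderated variances and with a block for replicate number.

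The branches and cores on which polylactosamine grows were followed as well. Of 7 N-glycan branching genes 1, MGAT5B, was called higher (0.21 ± 0.07 SE, limma adjusted p = 0.049), against 18.0% of all probe sets. That call was kept in 4 of 13 alternatives, with an adjusted p of up to 0.158. MGAT5, whose branch is the preferred site of long chains, was at 4.81 and 4.71 (adjusted p = 0.467). Of 4 genes of O-glycan cores 2 rose, C1GALT1 (0.70 ± 0.10) and GCNT3 (0.54 ± 0.09), and GCNT1, the core 2 branching enzyme and a relative of GCNT2, fell by 0.71 ± 0.11, with the same counts in all 13 alternatives; over all probe sets 18.0% rose and 16.8% fell.

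Carriers, sulfation and readers of the chain were counted beside the same 18.0% of probe sets called higher and 16.8% called lower. Of 6 measured proteins known to carry polylactosamine or keratan sulfate 3 rose and none had a negative change in limma's fit: CD44 (0.63 ± 0.08 SE), LAMP2 (0.48 ± 0.11) and LAMP1 (0.30 ± 0.08), with a median of 0.23 over the list. A further probe set of LAMP2, at 0.16, was not called, and with unmoderated variances 1 rise was left. CD44, with means of 3.13 and 3.76, lies among the dimmest probe sets, without which 2 rises were called. Of 7 genes of the sulfotransferase family that includes, but is not limited to, the keratan sulfate enzymes, 2 rose, CHST6 (0.39 ± 0.08) and CHST2 (0.32 ± 0.08). In this list 3 rose without untreated replicate 3 or with a block for replicate number. With unmoderated variances 1 rise was left, without the dimmest probe sets 0, and after quantile normalization 1 gene fell. CHST6 and CHST2 lie among the dimmest probe sets, under the level at which these were left out. Of 10 galectins, lectins that bind these chains, 3 rose and 2 fell, led by LGALS7 (2.07 ± 0.28), LGALS1 (1.68 ± 0.10) and LGALS8 (-1.17 ± 0.11), against 2 and 3 after median centring or quantile normalization and 2 rises without untreated replicate 2, treated replicate 2 or treated replicate 3. In the O-mannose pathway that B4GAT1 serves, B3GALNT2 rose (0.46 ± 0.08), the initiating mannosyltransferase POMT1 fell by 0.46 ± 0.09, and 3 of the 5 genes measured, of 12 listed, were not called. A further probe set of 1 of these 3 was called lower (-0.41, limma adjusted p = 0.0379). Falls there numbered 2 without untreated replicate 3, without treated replicate 3, and after quantile normalization or median centring, and 3 with array weights. No list was tested as a set.

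**Figure D5:**
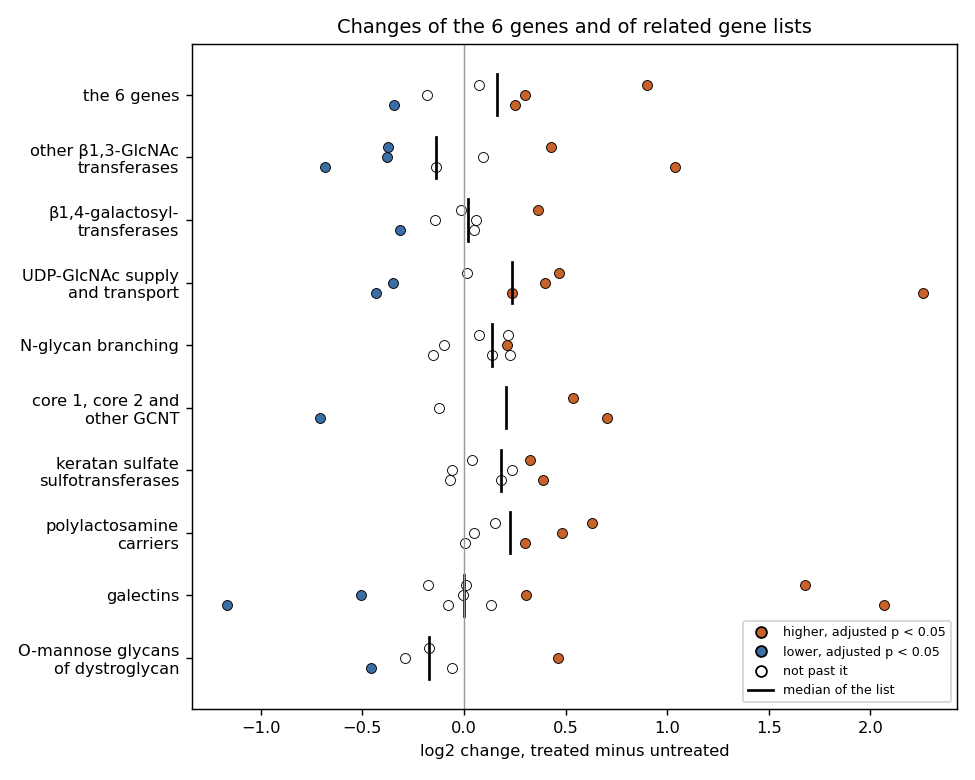
Log2 change, treated minus untreated (horizontal axis), of each measured gene in the 6-gene group and in 9 related lists (rows), orange where called higher, blue where called lower and white otherwise, with the list's median as a vertical line. Height within a row carries no value. The median of the 6 genes is 0.16 and that of the other β1,3 enzymes -0.14, and N-glycan branching, sulfotransferases and carriers are the rows with no blue point.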

How the data were processed

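Biotin-labelled RNA was hybridised to Affymetrix arrays, per the labels' protocols. The deposited table holds log2 values, made by the authors with RMA, per the submitters' processing notes; the log2 scale was taken from their range. No source used here gives RMA's version, the platform or the build. RMA compresses differences between dim probe sets. Transcript identifiers were matched without versions to RefSeq's gene table (GRCh38.p14, names only): 1043 of 1259 probe sets had 1 symbol, and 216 none. No column of values stayed unused.

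A linear model with 1 treatment term was fitted to all 6 arrays and 1259 probe sets in R 4.3.3 with limma 3.58.1 (lmFit, eBayes, two-sided, Benjamini-Hochberg over all probe sets). The steps were tested on simulated data. For genes with several probe sets, in the related lists only, the one with the highest mean was used. The rule for names took the 6 genes, up to 3 called genes in each direction per list by smallest p, and the 3 nearest profiles. Further genes named in the related lists (B3GNT5, MGAT5, SLC35D2, SLC35A3) were added after their values were seen. The members and lists were chosen with earlier results of these data known, and 1 item is not reported here. Alternatives were quantile normalization, median centring, leaving out the dimmest probe sets (839 stayed), an intensity trend, unmoderated variances, a block for replicate number, array weights, leaving out single arrays, and a threshold of 0.01. Promoter windows for 4 of the 6 genes came from RefSeq's table.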

Additional observations from a re-analysis of the deposited data

How the results depend on the processing

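The rises of B3GNT2 and B3GNT8 and the fall of B3GNT4 kept their direction and stayed past the threshold in all 13 alternatives to the fit. GCNT2 missed it after quantile normalization (log2 change 0.22, adjusted p = 0.0532), after median centring (0.19, adjusted p = 0.0947) and with unmoderated variances (0.25, adjusted p = 0.0991), and with single arrays left out its change ranged from 0.18 to 0.29 (adjusted p from 0.0262 to 0.108 over all alternatives). B4GAT1 passed it after median centring (-0.25), which made 2 falls among the 6 genes, and B3GNT7 turned to -0.011 after quantile normalization. The cause was not tested. B3GNT7 has no value without the dimmest probe sets, since its mean lies under 4.90. At an adjusted p under 0.01 there were 2 rises and 1 fall among the 6 genes, beside 177 rises and 153 falls over all 1259 probe sets. Averaging the probe sets of each gene gave 3 and 1. Each of the 6 genes has 1 probe set, so that step left their values unchanged and says little about them. With the replicate number as a block there were 3 rises and 1 fall, and no call among the 6 genes changed; over all probe sets 394 were called in place of 438. Deviations of arrays that share a number correlated at -0.27, 0.04 and -0.11, so the numbers were not taken to pair the arrays. The number of arrays, 3 in each group, limits the precision.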
